A study of Cynara cardunculus with 12 samples.

Results

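The genes described here are those with identifiers Ccrd_005090 to Ccrd_005894 of the cardoon genome CcrdV1, a run of neighbouring identifiers in which transcript levels were lower in all AtMYB4oe lines than in WT. The members were taken by identifier alone: 791 of the 26505 genes in the count table (2.98%) have a number in this range, and 14 of the 805 numbers have no row. The range itself was selected on the ratios of the lines to WT in these samples, so the levels of the members against WT, the order of the lines and the genes that depart from the fall are given as a description, with no test. RNA from friable callus of cardoon ("Spagnolo" genotype), a loose undifferentiated tissue grown from leaves, had been sequenced in 3 replicates of each of 4 groups. L1, L18 and L24 are lines that overexpress the Arabidopsis gene AtMYB4 from the constitutive CaMV35S promoter. L1 and L24 were obtained with the AGL1 strain of Agrobacterium and L18 with EHA105, and all were taken at sub-culture XIV on medium with phosphinothricin (PPT) and cefotaxime (CFX). WT is the untransformed callus at sub-culture XXII, on medium described without these agents. Each line comes from 1 transformed callus and no line with an empty vector was sequenced. The study's methods also give a longer interval between sub-cultures for WT than for the transformed calluses. The transgene, the selection, the passage through transformation and the number and interval of sub-cultures therefore cannot be told apart. The labels do not say that replicates came from separate cultures, so that the spread between them may be technical.

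Identifiers are usually handed out in order along an assembly, so that consecutive numbers mark neighbours on a scaffold, a stretch of joined genome sequence. Neighbouring genes of a plant nucleus commonly code for unrelated proteins, each read from its own promoter. AtMYB4 is known in Arabidopsis as a repressor of the phenylpropanoid pathway, which makes the precursors of lignin. AtMYB4 has no row of its own in the count table, and its level was not measured here. By RT-qPCR, the study reported the lowest transgene level in L1 and the highest in L18. Its relation to the values below was not tested.

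The reads counted on genes numbered 12505275 to 19509803 per sample. Counts were scaled by edgeR's TMM method (factors 0.854 to 1.10), and 20024 genes passed the filter on low counts (10.5 normalized counts in at least 1 sample) and were tested by edgeR's quasi-likelihood F test, and a gene was called where the p adjusted after Benjamini and Hochberg was at most 0.05. Of the members, 719 had at least 1 count, 72 had none in any sample and 631 passed the filter (79.8%, against 75.4% of all other genes). Callus has no marker of its own among the labels. As genes of green tissue, 17 were taken (chlorophyll-binding, Rubisco small subunit and photosystem proteins), of which 15 to 17 had counts in each sample. They were found by descriptions in the published lists of DEGs of these samples. They had thus been selected as changed against WT and are no neutral marker of tissue. Their summed level was 173 to 215 CPM in L1, 174 to 212 CPM in L18 and 54.6 to 76.7 CPM in L24, against 101 to 142 CPM in WT. Its part in the values below was not tested.

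Members took a smaller share of all counts in every line than in WT. L1 gave 2.23% ± 0.0927, L18 2.39% ± 0.0223 and L24 2.08% ± 0.195, against 3.26% ± 0.0230 in WT (SD, n = 3 each). Gene by gene, the log2 ratio of each sample's CPM to the WT mean (0.5 CPM added to both) was taken for the 414 members with a mean level of at least 3 on the log2 CPM scale. Its median over these genes was -0.63, -0.51 and -0.59 in the L1 replicates. It was -0.46, -0.54 and -0.46 in the L18 replicates and -0.94, -0.75 and -1.03 in the L24 replicates. In the WT replicates it lay between -0.02 and 0.00. No replicate of a line came near WT, and the highest L24 median stood below the lowest of L1 and L18. As group means these are -0.58 ± 0.06 in L1, -0.49 ± 0.04 in L18 and -0.91 ± 0.14 in L24 (SD, n = 3 each), or 0.669, 0.713 and 0.534 times the WT level. The 13096 other genes at this level had medians from -0.04 to 0.00 in all samples.

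**Figure D1:**
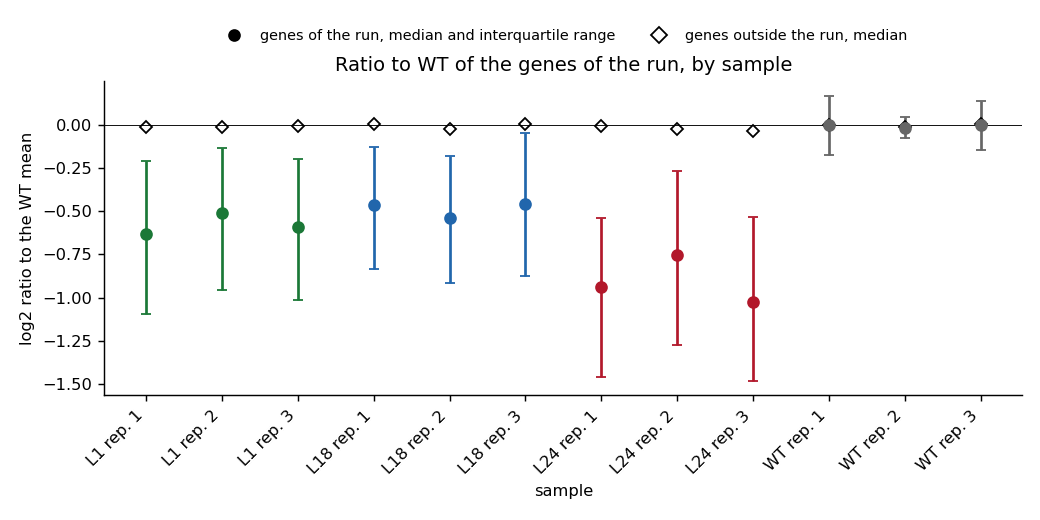
Median log2 ratio to the WT mean over the 414 genes of the run (circles) with the interquartile range over genes (bars), and the median of the 13096 genes outside it (diamonds), in each replicate of L1, L18, L24 and WT. All 9 line samples lie between -1.03 and -0.46, while every diamond lies within 0.04 of 0.

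Most of the 414 genes lay below the WT mean in every line sample, which the choice of the range on these ratios favours. The share was 80.7% to 83.8% in the L1 replicates, 77.3% to 83.1% in L18 and 85.5% to 90.3% in L24. Of the genes outside the run, 50.7% to 51.1% lay below it in L1, 49.7% to 52.2% in L18 and 50.6% to 52.5% in L24. The WT samples, which are themselves the reference, had 50.5% to 58.0% of the 414 below it. Of the 631 tested members, 297 (47.1%) were called lower in L1, where 20.4% of all tested genes were. In L18 235 members (37.2%) were called lower, beside 12.8% of all genes, and in L24 380 members (60.2%), beside 20.7%. Calls in the other direction numbered 43 in L1 (6.81%, beside 19.3% of all genes), 26 in L18 (4.12%, beside 12.5%) and 33 in L24 (5.23%, beside 19.3%). In all lines together, 183 members were called lower and 6 (0.951%) higher, beside 6.27% and 5.01% of all genes. In 245 members (38.8%, beside 9.75% of all genes) every replicate of every line lay below every WT replicate. The range was chosen for these very ratios, and nothing further is read from the counts. The median fitted log2 fold change of the members stood at -0.56 for L1, -0.48 for L18 and -0.87 for L24, beside 0.04, 0.02 and 0.03 for the other tested genes.

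**Figure D2:**
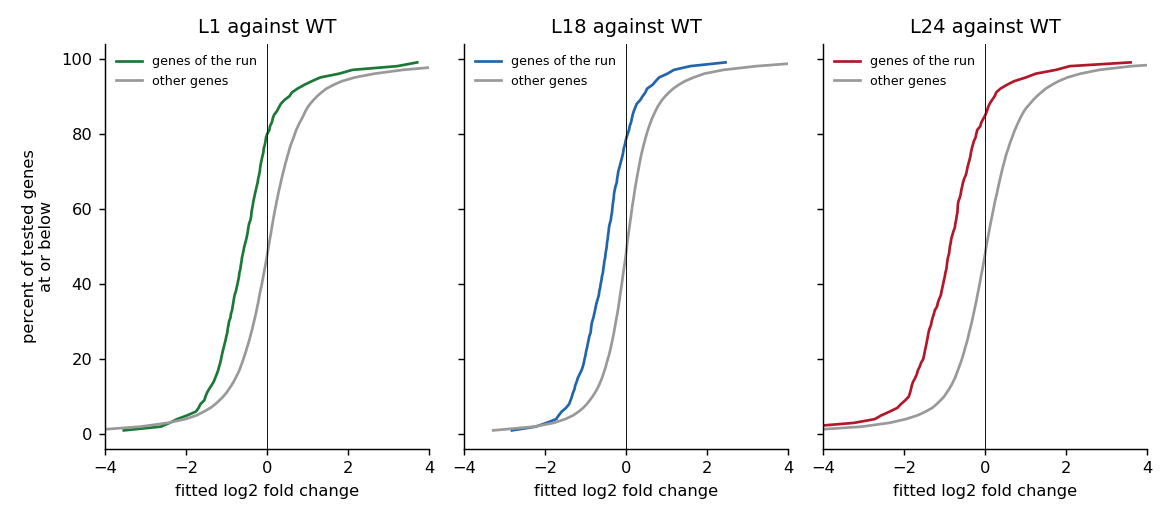
Cumulative percent of tested genes (y axis) at or below each fitted log2 fold change (x axis) for L1, L18 and L24 against WT, genes of the run in colour and the other tested genes in grey. The coloured curves run to the left of the grey ones through most of their height, with medians of -0.56, -0.48 and -0.87. The exceptions are the lowest 3 percent in L1 and the lowest 2 percent in L18, where the coloured curve lies to the right. That of L24 stays to the left there (-4.33, against -3.04 in the other genes at 2 percent).

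The depth of the fall changed along the run in the same way in every line. In steps of 100 identifiers, the group means of the sample medians were -0.73 in L1, -0.61 in L18 and -1.04 in L24 over Ccrd_005090 to Ccrd_005189 (56 genes), and -0.72, -0.65 and -1.05 over the next 100. They were smaller over the middle 4 steps, where L1 ranged from -0.44 to -0.26, L18 from -0.35 to -0.17 and L24 from -0.88 to -0.59. They were deepest at the end, with -0.84 in L1, -0.76 in L18 and -1.22 in L24 over Ccrd_005690 to Ccrd_005789, and -1.01, -0.91 and -1.42 over Ccrd_005790 to Ccrd_005894 (48 genes). The last step thus stood at 0.495, 0.534 and 0.373 times the WT level. With the run divided, after its values had been seen, into the middle identifiers Ccrd_005290 to Ccrd_005689 and the rest (207 genes each), the medians of the outer genes were lower than those of the middle genes in each of the 9 line samples. Group means were -0.83, -0.75 and -1.18 in the outer genes and -0.37, -0.29 and -0.68 in the middle for L1, L18 and L24. The WT samples lay within 0.03 of 0 in both.

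The fall began sharply and ended unevenly. Over identifiers Ccrd_004990 to Ccrd_005072 (60 genes) the means were 0.03, 0.09 and 0.09 in L1, L18 and L24. They were already -0.94, -0.71 and -1.42 over Ccrd_005073 to Ccrd_005089 (9 genes), the first numbers on scaffold 16, which goes on into the run. The start of the fall therefore falls between 2 scaffolds, and the first number of the run is not its first lowered gene. The 3 tested genes just inside the start were Ccrd_005090 (ribulose-phosphate 3-epimerase), Ccrd_005091 (a calcium-binding EF-hand protein) and Ccrd_005092 (adenylate kinase), with log2 fold changes from -1.81 to -1.004, -4.95 to -3.11 and -1.72 to -1.15 over the lines. Just outside lay Ccrd_005086, Ccrd_005088 (a lipase) and Ccrd_005089. Their values were -1.42 to 0.12, -1.56 to -0.18 and -1.26 to -0.56, and L18 was the weakest in each. At the other end the last number lies within scaffold 339, and the lines part there. Over Ccrd_005895 to Ccrd_005976 (28 genes) the means were -0.27 ± 0.18 in L1, -0.88 ± 0.15 in L18 and -0.90 ± 0.30 in L24. Ccrd_005893 and Ccrd_005894 (just inside) were called lower in every line, at -1.29 to -0.55, and so was Ccrd_005895 (just outside), at -1.41 to -0.70. Ccrd_005892 (inside) and Ccrd_005896 (outside) were called in no line, and Ccrd_005897 (outside) in L18 and L24 only, at -0.87 and -0.97. From Ccrd_005980 to Ccrd_006079 the means were above WT, at 0.51, 0.25 and 0.40.

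**Figure D3:**
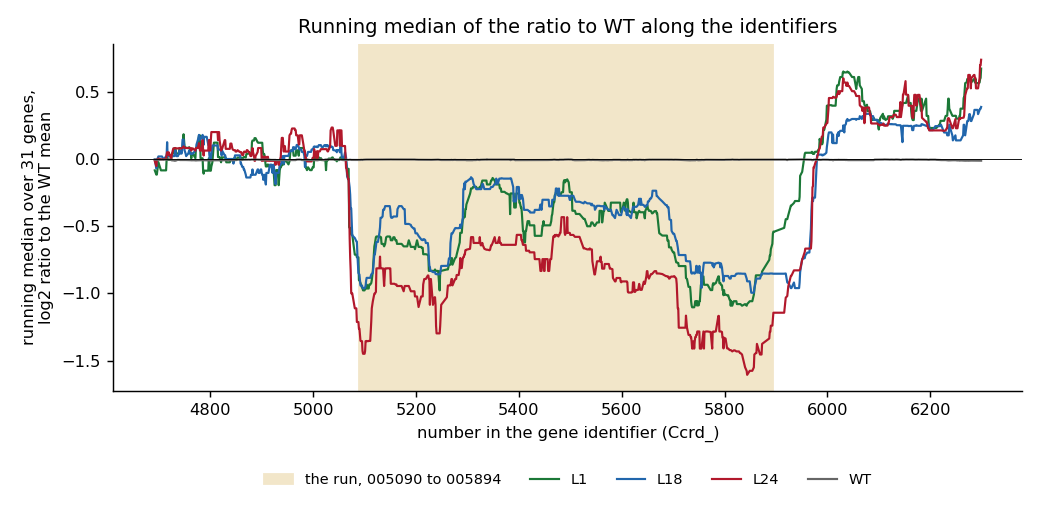
Running median over 31 genes of the log2 ratio to the WT mean (group means) against the number in the gene identifier, for L1, L18, L24 and WT, with the run shaded. The lines leave 0 just before Ccrd_005090, are closest to it in the middle of the run, where the group means over Ccrd_005290 to Ccrd_005689 are -0.37, -0.29 and -0.68, and return to 0 at different numbers after Ccrd_005894.

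The run covers 55 scaffolds, and on each of them the identifiers are consecutive. The files do not say how the scaffolds join. Medians were taken for the 27 scaffolds with at least 5 genes at the level above (373 genes). On 22 of them (81.5%) all replicates of all lines were below all WT replicates, beside 58 of 698 other scaffolds (8.31%). L1 was below WT on 25, L18 on 24 and L24 on 26 of the 27, beside 27.1%, 20.5% and 26.5% of the other scaffolds. All lines had a negative mean on 26, beside 159 of the 698 others (22.8%). The means ranged from -1.26 to -0.05 in L1, from -1.27 to 0.00 in L18 and from -1.63 to -0.25 in L24. On scaffold 1007 (7 genes), which holds the genes of the porin Ccrd_005229 and the mRNA-cleavage protein Ccrd_005226, the means were -1.20 ± 0.11 in L1, -1.08 ± 0.05 in L18 and -1.54 ± 0.23 in L24. On scaffold 109 (23 genes), with 3 genes of the ribosome group below, they were -1.20 ± 0.10, -0.94 ± 0.05 and -1.32 ± 0.32. On the other 5 scaffolds at least 1 line overlapped WT, and these were not the shallowest throughout. L18 overlapped WT on scaffolds 427 and 218 and L1 on scaffold 598, while L24 stood at -1.03, -0.87 and -1.11 there. On scaffold 464 (12 genes) the replicates of L1 had medians of -0.07, 0.05 and -0.13, overlapping WT (-0.14 to 0.02), while those of L18 (-0.30 to -0.25) and L24 (-0.63 to -0.23) did not. On scaffold 307 (13 genes) the mean was -0.39 ± 0.05 in L1, but L18 (0.00 ± 0.21) and L24 (-0.25 ± 0.27) overlapped WT.

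**Figure D4:**
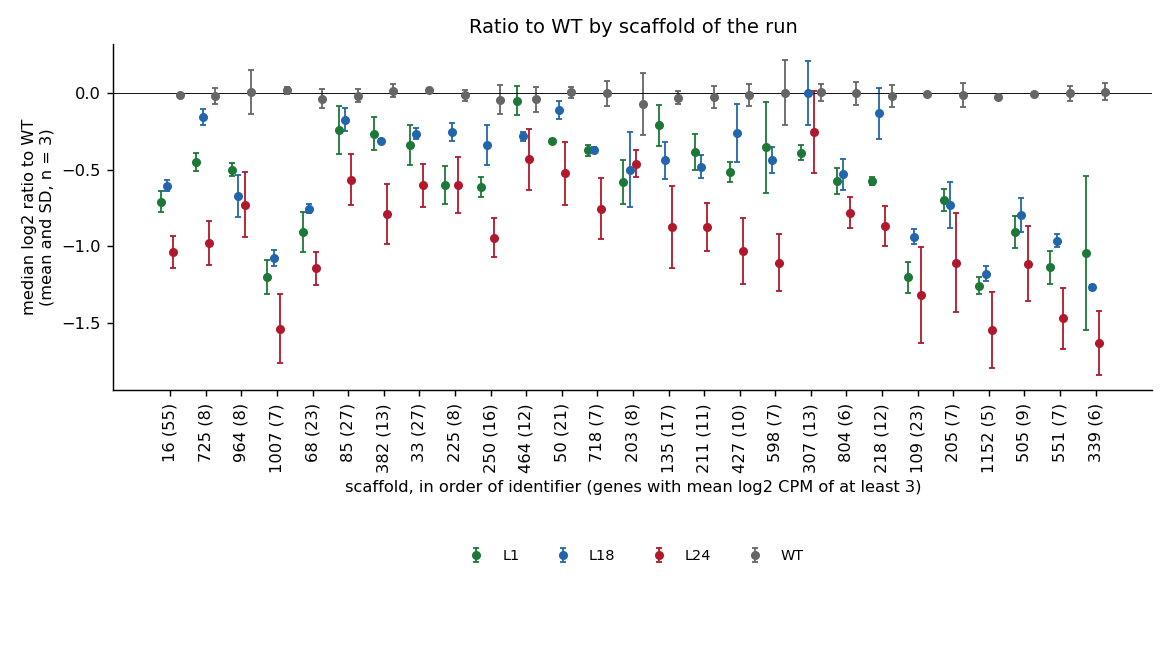
Median log2 ratio to the WT mean of the genes of the run on each of the 27 scaffolds with at least 5 of them (number of genes in parentheses), in order of identifier, as mean and SD of the 3 replicates of L1, L18, L24 and WT. L24 has the lowest mean on 25 scaffolds, and scaffolds 1007, 109, 1152, 551 and 339 stand at -0.94 or below in every line.

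Exon length and level were no part of the choice by identifier. The median exon length of the members was 1347 bases, against 1293 for all other genes, and the median WT level of tested members was 11.1 FPKM, against 9.18 FPKM. The middle and outer members had median exon lengths of 1482 and 1466.5 bases among those tested, with WT medians of 8.83 and 14.4 FPKM. In the group means of each line, shorter members had lower ratios. From the 138 shortest genes (at most 1304 bases) over the 138 of middle length to the 138 longest (at least 2004 bases), the means were -0.73, -0.60 and -0.41 in L1, -0.57, -0.52 and -0.41 in L18 and -1.09, -0.90 and -0.73 in L24. Genes outside the run, divided at the same lengths, had a gradient of the same sign. It went from -0.17 over -0.01 to 0.13 in L1, from -0.12 over 0.01 to 0.09 in L18 and from -0.16 over -0.03 to 0.12 in L24. Single samples differed in it. From the shortest to the longest members, WT replicate 1 went from 0.14 to -0.14 and WT replicate 3 from -0.11 to 0.09. L18 replicate 2 went from -0.51 to -0.55, while every other line sample rose. The gradient is thus not particular to the members or the lines. By level, the 138 members of lowest level stood at -0.50 ± 0.11 in L1, -0.41 ± 0.08 in L18 and -0.87 ± 0.12 in L24. The 138 of highest level stood at -0.71 ± 0.06, -0.54 ± 0.02 and -0.995 ± 0.163 in these lines. Genes outside the run at the same levels gave 0.07 and -0.09 in L1.

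Descriptions or functional terms of 148 members came from published lists of DEGs of these samples, so that every such member had been selected as changed in L1, and the gene groups below are no independent evidence of direction. Of the 148, 123 (83.1%) were called lower in L1, 97 (65.5%) in L18 and 118 (79.7%) in L24, beside 20.4%, 12.8% and 20.7% of all tested genes. Calls higher numbered 22 (14.9%), 8 (5.41%) and 12 (8.11%) in L1, L18 and L24. The counts of the gene groups stand beside these shares, and with 3 to 16 genes in a group nothing particular to a group is read from them. Among 8 genes with mitochondrial terms, 7 (87.5%) were called lower in each line. Ccrd_005119 (succinate dehydrogenase, an enzyme of both the citric acid cycle and the respiratory chain; scaffold 16, 274816 to 277253) had 1610.3, 1585 and 1869.7 normalized counts in L1, 2312, 2429.6 and 1979.7 in L18 and 1433, 1219 and 1133 in L24, against 7236, 5207 and 4148 in WT. Its log2 fold changes were -1.71 ± 0.19, -1.30 ± 0.19 and -2.13 ± 0.19 (SE). All 9 line samples were below the lowest WT sample, as they also were for the following members. Ccrd_005103 (a protein with a cytochrome c domain, a carrier of electrons) averaged 2346 ± 213 in L1, 2605 ± 356 in L18 and 1786 ± 219 in L24, against 6399 ± 1682 in WT (SD, n = 3 each). Ccrd_005109 (prohibitin, a scaffold protein of the inner membrane) averaged 2413 ± 142, 2498 ± 403 and 1642 ± 309 in L1, L18 and L24, against 6064 ± 1879 in WT. Ccrd_005229 (porin, a channel of the outer membrane) averaged 2672 ± 268, 3039 ± 214 and 2421 ± 207, against 6228 ± 1287 in WT. Each of these 4 genes was called lower in all lines, and L24 had the lowest mean in each. The exception in the group was Ccrd_005329 (the MLRQ subunit of complex I; scaffold 85, 152263 to 153422), with 4373, 3826 and 8368 normalized counts in L1, 1205, 133 and 1663 in L18 and 3997, 3738 and 3324 in L24, against 824, 406 and 651 in WT. It was called higher in L1 (3.14 ± 0.62) and L24 (2.56 ± 0.60), and L18 overlapped WT.

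All 8 members with ribosome terms and all 8 with methyltransferase terms were called lower in each of the lines. The medians of the ribosome group were -1.40 for L1, -1.02 for L18 and -1.63 for L24, and those of the methyltransferase group -0.94, -0.68 and -1.37. Ccrd_005734, a ribosomal protein of the L4 family and among the 10 members with the highest FPKM in WT, had 4103, 3844 and 4080.0 normalized counts in L1, 3985, 5394 and 4238 in L18 and 3709.8, 3226 and 2675 in L24, against 13460.5, 9724 and 9034 in WT. Ccrd_005249, with the S4 domain of small-subunit proteins, averaged 1923 ± 114 in L1, 2629 ± 611 in L18 and 1951 ± 186 in L24, against 5606 ± 839.8 in WT. Ccrd_005840 (ribosomal protein L29) averaged 644 ± 39.1, 900.5 ± 82.8 and 571 ± 97.6, against 1670.2 ± 87.2 in WT. No sample of a line reached WT in these genes, and L18 was the least lowered in each. In the methyltransferase group the largest fall was that of Ccrd_005622, which adds methyl groups to ribosomal RNA (50.6 ± 10.5 in L1, 112 ± 22.2 in L18 and 56.9 ± 7.76 in L24, against 289 ± 58.5 in WT). Ccrd_005225 fell further in L24 than in the others, with 249, 309 and 252 normalized counts in L24, 495, 605 and 535 in L1 and 550.0, 527 and 616 in L18, against 773, 907 and 998 in WT. Of 5 members for chromatin and RNA processing, 4 were called lower in each line, among them Ccrd_005844 (LSm8, a protein bound to U6 small nuclear RNA, whose gene overlaps Ccrd_005845) at -1.52, -1.41 and -1.63, and Ccrd_005226 (Clp1, of the complex that cleaves pre-mRNA) at -1.25, -1.23 and -1.60. The other, Ccrd_005231 (SSRP1, a subunit of the histone chaperone FACT), was called higher in L1 only, with 27.3, 23.8 and 27.6 normalized counts in L1, against 2.45, 4.93 and 5.35 in WT.

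All 3 members with terms of aromatic amino acid synthesis, the supply route of the phenylpropanoid pathway, were called lower in every line. Ccrd_005749 (an aldolase-type TIM barrel protein with shikimate and dehydroquinate terms; scaffold 109, 385438 to 393904) had 279, 246 and 396 normalized counts in L1, 207, 270.3 and 188 in L18 and 300.0, 499.5 and 267 in L24, against 1664, 1567 and 1877 in WT. This was among the 10 deepest falls of the run (-2.48 ± 0.24, -2.94 ± 0.25 and -2.26 ± 0.24), and L24 was not the lowest line. Ccrd_005241 (3-dehydroquinate synthase, an early enzyme of the shikimate pathway) averaged 72.9 ± 11.7 in L1, 101 ± 6.20 in L18 and 53.6 ± 9.24 in L24, against 189.9 ± 13.2 in WT. Of 7 members of central carbon metabolism, 6 were called lower in L1 (85.7%), 3 in L18 (42.9%) and 4 in L24 (57.1%). The last 2 shares were near those of the whole run and below those of the 148 described members (65.5% and 79.7%). The 7 include Ccrd_005090 (ribulose-phosphate 3-epimerase, of the pentose phosphate pathway), with 693 ± 24.8, 1116 ± 95.4 and 637 ± 76.2 against 2238 ± 304 in WT, and Ccrd_005786 (UTP-glucose-1-phosphate uridylyltransferase, which makes UDP-glucose), with 13.4 ± 7.87, 18.7 ± 6.53 and 7.31 ± 4.42 against 70.2 ± 10.4 in WT. Ccrd_005643 (an aldehyde dehydrogenase) was the exception and was called higher in L1 (1326 ± 42.4, against 567 ± 58.2 in WT), with L18 and L24 overlapping WT.

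Of 16 transcription factor genes, 12 were called lower and 4 higher in L1, 5 lower and 3 higher in L18, and 10 lower and 2 higher in L24. The lower calls in L18 (31.2%) and L24 (62.5%) were near the shares of the whole run, 37.2% and 60.2%. They were below those of the 148 described members, 65.5% and 79.7%. The Dof-type zinc finger gene Ccrd_005394 had 155, 225 and 108 normalized counts in L1, 3278, 4205 and 1467 in L18 and 742, 366 and 555 in L24, against 2136, 2214 and 1983 in WT. Its near neighbour Ccrd_005396, of the same class, had 77.2, 103 and 22.5 in L1, 344, 796 and 363 in L18 and 8.14, 11.1 and 10.6 in L24, against 497, 408 and 373 in WT. Both were thus low in L1 and L24, while L18 overlapped WT. The bHLH genes Ccrd_005550 and Ccrd_005551, which lie side by side on scaffold 203, were both called lower in L1 (-1.54 and -2.70), but Ccrd_005551 was called lower in L24 (-2.25) and higher in L18 (1.18), where Ccrd_005550 was called in neither. Of 7 cell wall and peroxidase members, 5 were called lower and 2 higher in L1, 3 and 2 in L18 and 4 and 1 in L24. Ccrd_005623 (beta-galactosidase) averaged 127 ± 45.7 in L1, 2074 ± 478 in L18 and 545 ± 124 in L24, against 1180.5 ± 275 in WT. The peroxidase gene Ccrd_005687 had 67.2, 72.9 and 75.1 normalized counts in L1, 30.5, 0 and 8.52 in L18 and 11.2, 21.0 and 31.8 in L24, against 3.68, 0 and 0 in WT. From the summed counts it was 65.9-fold higher in L1 (95% exact interval 22.3 to 322) and 19.5-fold higher in L24 (6.37 to 97.4), with L18 overlapping WT; intervals of this kind cover counting error only. Of 6 lipase and patatin members, 4 were called lower and 2 higher in both L1 and L24, and 3 lower and none higher in L18. That all 6 were called in L1 follows from their choice.

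The deepest falls are given here as the 10 lowest mean fold changes among the 245 members without overlap. Ccrd_005812, a protein with a chitin-binding type-1 domain, had 0.909, 1.44 and 1.25 normalized counts in L1, 34.1, 25.2 and 59.6 in L18 and 2.03, 1.11 and 0 in L24, against 2123, 1506 and 1922 in WT. With 4 counts in all of L1 and 3 in all of L24, the ratio of summed counts was 1501-fold lower in L1 (interval 586 to 5512) and 1725-fold lower in L24 (590.0 to 8369), and the fitted log2 fold change in L18 was -5.53 ± 0.28. The K-box transcription factor gene Ccrd_005335, of the MADS family, had 70.0, 88.1 and 33.8 normalized counts in L1 and 2.69, 17.9 and 7.57 in L18, and no count in any L24 sample, against 264, 396 and 399 in WT. Taken against a floor of 3 counts per library, it was at least 111-fold lower in L24. The NAC gene Ccrd_005253 and the WRKY gene Ccrd_005774, from further families of transcription factors, had no count in L24 either. They were at least 7.54-fold and 5.80-fold lower there, with WT means of 24.0 and 18.5 normalized counts. Ccrd_005774 was nearly absent from the other lines too, with 1 count in L1 and none in L18 (at least 6.38-fold lower). Ccrd_005375 (a hexosyltransferase) averaged 1.97 ± 2.67 in L1, 41.4 ± 3.23 in L18 and 5.25 ± 1.90 in L24, against 106 ± 45.4 in WT. Ccrd_005762 (patatin, a storage protein family with lipid-cleaving activity) averaged 26.1 ± 10.0, 42.5 ± 32.2 and 5.26 ± 1.61, against 136 ± 42.8 in WT. The others in this set were Ccrd_005749 above, the EF-hand gene Ccrd_005091 (1.91 ± 2.71, 0.949 ± 0.902 and 0.353 ± 0.612, against 14.6 ± 3.37 in WT), Ccrd_005252, and the amino acid transporter gene Ccrd_005257, which overlaps Ccrd_005258. How reads shared by overlapping genes were counted is not given in the sources used here.

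The set above was chosen for its depth, so it is not compared with the 10 members with the highest FPKM in WT. The 10 named by this rule included Ccrd_005834 with 4722 ± 988 normalized counts in L1, 5144 ± 630.5 in L18 and 3704 ± 731 in L24, against 11817 ± 2724 in WT, and Ccrd_005724 with 6268 ± 199, 5625 ± 536 and 4278 ± 474, against 10687 ± 2411 in WT. In 2 of the 10, singled out after their values were seen, L24 stood apart from the other lines. Ccrd_005480, the member with the most counts, had 34898, 37995 and 25574 in L24, 18673, 21553 and 19907 in L1 and 18452, 26499.8 and 16717 in L18, against 31028, 35929 and 29291 in WT. The heat shock factor gene Ccrd_005430 had 7646, 7466 and 6072 in L24, 3337, 3149 and 3778 in L1 and 3350.3, 4711 and 2723 in L18, against 8674, 8969 and 9554 in WT. Both were called lower in L1 and L18 and not in L24, and the L24 samples of Ccrd_005480 overlapped WT.

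L24 lay lower than L1 and L18 over the whole length of the run. The difference of the group means was -0.33 between L24 and L1 and -0.42 between L24 and L18 over the 414 genes, against 0.09 between L18 and L1. Outside the run the same differences were -0.01, -0.02 and 0.01. By steps of 100 identifiers, L24 minus L1 ranged from -0.43 to -0.23 and L24 minus L18 from -0.53 to -0.36, so that the middle of the run, where all lines came closer to WT, kept the distance (-0.32 and -0.39, against -0.36 and -0.43 in the outer genes). L24 had the lowest mean on 25 of the 27 scaffolds. All its replicates were below all L1 replicates on 15 of them and below all L18 replicates on 20. The same counts were not taken on other scaffolds, so no share stands beside them. Scaffolds 203 and 307 were those where L24 was not lowest: on scaffold 203 (8 genes) the means were -0.58 ± 0.14 in L1, -0.50 ± 0.25 in L18 and -0.46 ± 0.09 in L24. Gene by gene, 141 members (22.3%) were called lower in L24 than in L1 and 24 higher, beside 10.8% and 9.73% of all genes. Against L18, 221 were called lower in L24 and 39 (6.18%) higher, beside 16.4% and 14.3%. Between L18 and L1, 73 (11.6%) were lower in L18 and 99 (15.7%) higher, beside 16.1% and 16.9%. Without L24 replicate 3 the counts of members called lower in L24 were 67 against L1 and 133 against L18. L24 replicate 2 had the highest of the 3 L24 medians, and without it the differences of the medians were -0.40 and -0.49.

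In 153 members (24.2%, beside 8.84% of all genes) all L24 replicates were below all replicates of L1 and L18, and in 13 (2.06%, beside 6.73%) they were above them. At the lower extreme were the transcription factor gene Ccrd_005335 above and members absent from L24. Ccrd_005337, 2 numbers further on scaffold 85, had 401, 371 and 3269 normalized counts in L1 and 8.08, 9.47 and 5.68 in L18, and none in L24, against 1.23, 3.95 and 2.14 in WT. Ccrd_005570 had 5.45, 39.7 and 15.0 in L1 and 86.1, 177 and 152 in L18, and none in L24, against 1.23, 4.93 and 3.21 in WT. In both it was L1 or L18 that departed from WT, not L24 alone. Ccrd_005445 and Ccrd_005252 completed the 5, with 0 and 1 counts in the L24 samples together. At the upper extreme was the patatin gene Ccrd_005414 (scaffold 33, 685835 to 697887), with 1307, 1403 and 1071 normalized counts in L24, 412, 417 and 349 in L1 and 42.2, 8.41 and 36.9 in L18, against 31.9, 24.7 and 54.6 in WT. Its log2 fold changes were 5.09 ± 0.38 in L24 and 3.41 ± 0.36 in L1, and L18 overlapped WT. Ccrd_005869 averaged 1306 ± 584 in L24, 445 ± 86.8 in L1 and 185 ± 41.1 in L18, against 299 ± 52.2 in WT. Ccrd_005475 averaged 58.5 ± 10.2, 24.9 ± 18.6 and 2.44 ± 2.27 in the same order, against 4.35 ± 1.83 in WT. Ccrd_005371 and Ccrd_005137 had 0 or 1 counts in all WT samples together and 24.9 ± 9.11 and 35.2 ± 10.3 normalized counts in L24.

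Few members stood above WT. A positive log2 fold change in all lines was found in 44 of the 631 (6.97%, beside 30.0% of all genes), a negative one in 431 (68.3%, beside 28.5%), and 156 had mixed signs. Of the 44, 6 were called higher in all lines, 11 in 2, 11 in 1 and 16 in none. They were spread over 22 scaffolds and did not form a block: 3 pairs were next to each other among the tested members, and no stretch was longer than 2. The middle identifiers Ccrd_005290 to Ccrd_005689 held 32 of them (10.1% of 317 tested), and the outer ones 12 (3.82% of 314). The members called lower in L24 were 51.1% of the middle ones and 69.4% of the outer ones. This division was made after the ratios had been seen, so that both differences follow in part from it. The 44 had a median WT level of 102 normalized counts, against 320.0 for the other tested members, and 3 of them had at most 3 counts in each WT sample. By level, 6.52% of the 414 members at or above a mean log2 CPM of 3 and 7.83% of the 217 below it were in this set.

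In 9 of them (1.43%, beside 7.24% of all genes) every replicate of every line exceeded every WT replicate, and 8 of these lie between Ccrd_005287 and Ccrd_005494. The patatin gene Ccrd_005408 (scaffold 33, 598900 to 604208) had 318, 334 and 602 normalized counts in L1, 63.7, 53.6 and 77.6 in L18 and 182, 52.1 and 191 in L24, against 36.8, 21.7 and 37.4 in WT. Its log2 fold changes were 3.71 ± 0.44 in L1 and 2.16 ± 0.44 in L24, and the value in L18, 1.03 ± 0.45, was not called. The AP2/ERF gene Ccrd_005456, from a plant family of transcription factors (scaffold 250, 155138 to 159878), had 316, 329 and 245 in L1, 626, 760.4 and 507 in L18 and 286, 266 and 247 in L24, against 95.7, 103 and 106 in WT. It was called higher in all lines, at 1.55 ± 0.18, 2.64 ± 0.18 and 1.39 ± 0.18, and was highest in L18. Ccrd_005311 (uncharacterized; scaffold 85) had 1496, 1626 and 2584 in L1, 750.1, 677 and 784 in L18 and 1475, 1799 and 1549 in L24, against 402, 422 and 433 in WT. Ccrd_005353, with the CCT domain known from proteins of the plant clock and flowering time, averaged 355 ± 42.5, 257 ± 79.5 and 333 ± 78.8, against 141 ± 28.1 in WT, and overlaps Ccrd_005352. Ccrd_005494, Ccrd_005362 and Ccrd_005318 were also called higher in all lines, with log2 fold changes from 0.66 to 2.01 that were smallest in L24 in each. The last of the 9, Ccrd_005287 and Ccrd_005283, had values between 0.24 and 0.78, with 1 line each not called.

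**Figure D5:**
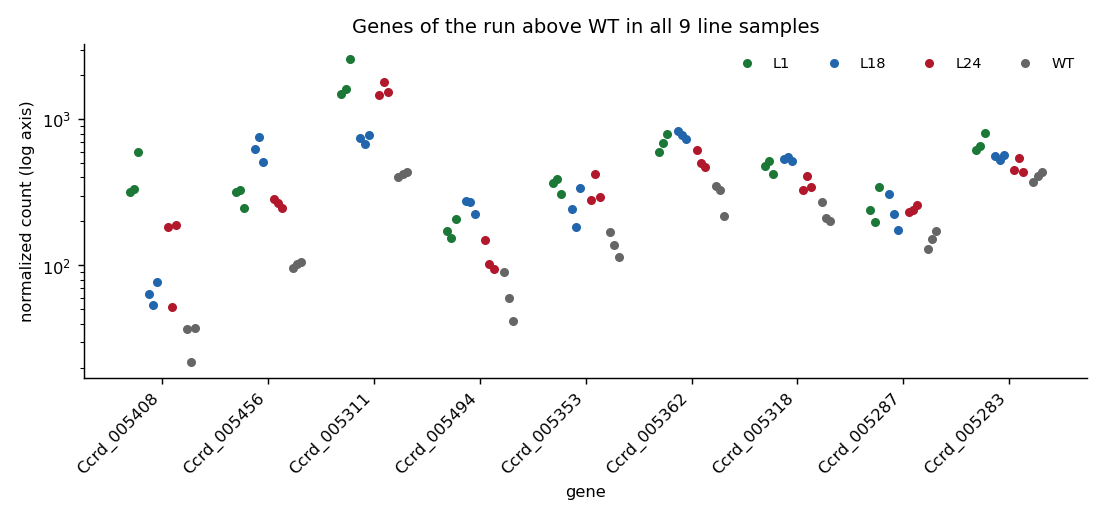
Normalized counts (log axis) of the 9 genes of the run in which all 9 samples of L1, L18 and L24 lie above all 3 WT samples, each point 1 sample. The distance to WT is widest for Ccrd_005408 in L1 (318 to 602, against 21.7 to 37.4 in WT) and narrowest for Ccrd_005283 in L24 (436 to 547, against 375 to 433 in WT).

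A second lowered run, Ccrd_009015 to Ccrd_010721 (825 genes at this level), had the lines in another order. The means there were -0.72 ± 0.05 for L1, -0.43 ± 0.02 for L18 and -0.50 ± 0.06 for L24, with L1 the lowest. L24 minus L1 was 0.22 there and -0.33 here. In the raised run Ccrd_005895 to Ccrd_006688 (410 genes), which starts where this one ends, the means were 0.35 ± 0.02 for L1, 0.20 ± 0.05 for L18 and 0.29 ± 0.09 for L24. All of these comparisons share the 3 WT samples.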

How the data were processed

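RNA-seq of callus from L1, L18, L24 and WT gave 12 samples, 3 per group. According to the study's methods, reads were trimmed with BBDuk and aligned to the cardoon genome CcrdV1 with STAR. The read counter and its handling of strand and of overlapping genes are not given in the sources used here. The deposited count table holds the unscaled number of reads that the authors assigned to each gene, with scaffold, start, end, strand and exon length. The authors' deposited FPKM values were scaled by exon length and library total. Recomputing FPKM from the counts gave a ratio of 1 in all samples.

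Counts were analysed in R 4.3.3 with edgeR 4.0.16 (1 quasi-likelihood fit to all 12 samples, TMM, Benjamini-Hochberg adjustment over 20024 genes at 0.05) and in Python 3.11.15. The filter followed the Jaccard rule of HTSFilter, written anew. Standard errors of log2 fold changes were taken as |log2 fold change| over the square root of F. Sample ratios used CPM with 0.5 added, and medians used genes whose mean log2 CPM reached 3. A fold against a group without counts is a bound at 3 counts per library. Ratios of summed counts to groups of fewer than 10 counts carry exact 95% intervals for counting error. Tested on simulated data for L24 against WT, the fit called 76 of 100 genes changed by 1 and 97 of 100 changed by 2 on the log2 scale, with 5 of 19824 unchanged genes called. The simulation gave every gene the same fixed dispersion and changed far fewer genes than were called in the real data. These rates therefore need not hold for the real counts.

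Genes with values in the text are members of the gene groups, the 10 deepest falls, the 9 found by a rule that asked for up to 10 members above WT in every replicate, the 10 with the highest WT FPKM, 3 genes on each side of both ends, and 5 with L24 furthest below and 5 furthest above the other lines. The members, lists and rules were chosen with earlier results of these data known. Alternatives were other filters, scalings, tests, level limits and pseudocounts, the replicate number as a block, and fits without each sample. Neither sequences nor gene names beyond the published descriptions were used, and the transgene was not analysed here.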

Additional observations from a re-analysis of the deposited data

Results flagged for a closer look

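Among the 92 named members, 64 had effects against WT that differed between lines by the contrast of the lines themselves (edgeR's quasi-likelihood F test over 20024 genes, adjusted p of 0.0454 or less in each). These are 69.6% of the named members, beside 56.6% of the 631 tested members and 48.6% of all tested genes that were called between any 2 lines. The named members include 10 picked for the distance of L24 from the other lines, all of them among the 64. For each gene the called contrast with the largest fitted log2 difference is given, with no explanation. The lines were compared in the choice of the run, so these are descriptions of single genes.

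L24 was lower than L18 on the log2 scale in Ccrd_005396 (-5.64), Ccrd_005762 (-2.98), Ccrd_005637 (-2.16), Ccrd_005456 (-1.25), Ccrd_005494 (-1.16), Ccrd_005225 (-1.06), Ccrd_005713 (-1.01), Ccrd_005738 (-1.01), Ccrd_005224 (-0.92), Ccrd_005241 (-0.91), Ccrd_005119 (-0.83), Ccrd_005090 (-0.81), Ccrd_005101 (-0.79), Ccrd_005742 (-0.78), Ccrd_005100 (-0.76), Ccrd_005539 (-0.74), Ccrd_005628 (-0.69), Ccrd_005830 (-0.68), Ccrd_005840 (-0.66), Ccrd_005109 (-0.61), Ccrd_005318 (-0.57), Ccrd_005092 (-0.57), Ccrd_005362 (-0.55), Ccrd_005103 (-0.54) and Ccrd_005511 (-0.41). L24 was higher than L18 in Ccrd_005749 (0.68), Ccrd_005869 (2.81) and Ccrd_005414 (5.40). By ratio of summed counts, L24 was 37.8-fold lower than L18 in Ccrd_005812 (95% exact interval 12.6 to 186). L24 was 22.8-fold higher in Ccrd_005475 (11.3 to 53.6) and 77.2-fold higher in Ccrd_005371 (13.4 to 3093), which had 1 count in all of L18. Against a floor of 3 counts per library, it was at least 43.5-fold lower in Ccrd_005570, at least 5.06-fold lower in Ccrd_005445 and at least 12.2-fold higher in Ccrd_005137.

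L24 was lower than L1 in Ccrd_005894 (-0.74), Ccrd_005724 (-0.55) and Ccrd_005283 (-0.53), and higher in Ccrd_005480 (0.71), Ccrd_005430 (1.05) and Ccrd_005550 (2.07). The ratio of summed counts was 34.5-fold lower in Ccrd_005606, a GATA-type factor gene (95% exact interval 5.84 to 1395). It was 66.4-fold lower in Ccrd_005252 (11.6 to 2655). Each of these genes had 1 count in all of L24. L24 was at least 423-fold lower in Ccrd_005337, of whose L1 counts most came from replicate 3. It was at least 20.1-fold lower in Ccrd_005335, at least 1.28-fold lower in Ccrd_005253 and at least 10.8-fold lower in the peroxidase gene Ccrd_005616, where L18 was at least 11.9-fold lower than L1. The last overlaps Ccrd_005615 and Ccrd_005617, and had 90.9, 8.67 and 3.76 normalized counts in L1 and none in any other group.

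L18 was lower than L1 in Ccrd_005408 (-2.68), Ccrd_005329 (-2.46), Ccrd_005687 (-2.42), Ccrd_005381 (-1.65), Ccrd_005311 (-1.37), Ccrd_005643 (-1.10) and Ccrd_005269 (-0.94). It was higher in Ccrd_005464 (0.88), Ccrd_005622 (1.13), Ccrd_005458 (1.41), Ccrd_005240 (1.76), Ccrd_005257 (2.76), the beta-glucanase gene Ccrd_005364 (3.62), Ccrd_005551 (3.87), Ccrd_005623 (4.01) and Ccrd_005394 (4.18). By ratio of summed counts L18 was 27.1-fold higher in Ccrd_005375 (95% exact interval 11.3 to 85.0) and 10.1-fold lower in Ccrd_005231 (4.90 to 24.2).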

How the results depend on the processing

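The fall in L1, L18 and L24 kept its direction under every alternative run. Scaling by the total gene count moved the medians to -0.48, -0.41 and -0.75. That scaling raised the medians of the genes outside the run to 0.08, 0.07 and 0.13, and the distance between the run and the other genes stayed at -0.56, -0.48 and -0.88. Raising the minimum mean log2 CPM to 5 gave -0.69 in L1 and -0.54 in L18. Chosen after seeing the data, the middle identifiers Ccrd_005290 to Ccrd_005689 gave -0.37, -0.29 and -0.68, and the run without them -0.83, -0.75 and -1.18. Without each replicate in turn, the medians ranged from -0.62 to -0.55 in L1, from -0.51 to -0.46 in L18 and from -0.98 to -0.85 in L24, L24 minus L1 from -0.40 to -0.27 and L24 minus L18 from -0.49 to -0.36. Over the same fits, members called lower numbered 239 to 306 in L1, 189 to 242 in L18 and 326 to 389 in L24, those called higher 37 to 44, 16 to 27 and 28 to 34, and those called lower in all lines 144 to 188. In L24, 67 to 145 were lower and 18 to 24 higher than in L1, and 133 to 220 lower and 27 to 39 higher than in L18. In L18, 61 to 78 were lower and 66 to 107 higher than in L1. Members positive in all lines numbered 37 to 52, and those called higher in all lines 4 to 8. The lowest of the last count and of the higher calls in L18 came without WT replicate 2, and that of the lower calls of L24 against L1 and L18 without L24 replicate 3. The causes were not tested. With 3 libraries per group, smaller shifts of single genes were less often recovered than larger ones on simulated data.

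Replicate numbers were not taken to pair the samples: same-numbered samples of 2 groups deviated together with correlations from -0.34 to 0.46, and 6 of 18 were over 0.1. All 3 pairs of L24 with WT were among these (0.14 to 0.46), and no other 2 groups had all their pairs over 0.1. With the replicate number as a block, 283, 227 and 375 members were called lower in L1, L18 and L24, and 7 were called higher in all lines. Each call of a named member in L24 against WT held with the block. Of 235 calls of named members against WT, 224 had a value in each of 20 alternative fits, and 190 of these held in all. The other 11 were left out by the filter of 1 or 2 fits, and 9 of them held in the rest. In all, 36 calls were lost in at least 1 fit, and no value changed sign.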
